A study of Mus musculus with 8 samples.

Results

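Acod1, Nos2 and Ass1 encode enzymes by which a macrophage makes itaconate and nitric oxide and rebuilds arginine. These 3 genes were taken from the 54532 genes of the count tables by symbol and Ensembl identifier. Acod1 was picked for its large fall under both antagonists in these same libraries, so its values are given as a description with no test. Nos2 and Ass1 were added for their place in nitric oxide and arginine metabolism. Of the 3 genes, 2 passed the filter on low counts (Acod1 and Ass1), and 1 of those was given a test (Ass1).

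Polyadenylated RNA was sequenced from mouse bone marrow-derived macrophages (BMDMs), cells grown for days from tibial and femoral marrow in medium conditioned by L929 fibroblasts. The 8 libraries formed 4 groups of 2, namely WT, Trex1-KO, Trex1-KO+H151 and Trex1-KO+SN-011. The marrow came from WT or Trex1-/- mice aged 6 to 8 weeks, and Trex1-/- animals lack the DNA exonuclease TREX1 in every cell. Cells were kept for 12 h with DMSO or an antagonist, H151 at 500 nM per the labels. A dose of SN-011 is missing from the labels, while the study's methods name the same nominal dose for both compounds. The libraries of a group were independent experiments according to the study, without saying whether they came from separate mice, and p-values measure the spread between these libraries.

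Itaconate is made in mitochondria from cis-aconitate, an intermediate of the tricarboxylic acid (TCA) cycle, by the decarboxylase that Acod1 (also called Irg1) encodes, and macrophages are known to make it after activation by bacterial products or interferons. Nos2 encodes the inducible nitric oxide synthase, which turns arginine into nitric oxide and citrulline. Nos2 is the classical marker of inflammatory mouse macrophages, while Ass1 joins citrulline to aspartate as the first step of rebuilding arginine. cGAS senses cytosolic DNA and activates STING through cGAMP, and H151 and SN-011 are STING antagonists.

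On mouse genome build GRCm38, with gene models of GENCODE release M21, Acod1 (ENSMUSG00000022126) lies on the plus strand of chr14:103046977-103056573, Nos2 (ENSMUSG00000020826) on the plus strand of chr11:78920787-78960254 and Ass1 (ENSMUSG00000076441) on the plus strand of chr2:31470207-31520672. The counts cover exons, whose summed length is 2623 bases for Acod1, 4412 for Nos2 and 2414 for Ass1.

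RefSeq promoter windows on GRCm38.p6 were at hand for 2 of the 3 genes, Acod1 and Ass1. They are printed up to the last base before the first annotated transcript base, 5′ to 3′, to set the promoter of the gene that moved most beside that of a gene for which no change was called. Capitals mark the letters AGGAAGT of a PU.1 site and GGAAATTCC of an NF-kappaB site. The letters of the motifs were chosen with the windows in view.
Acod1, plus strand of chr14:103046762-103046976: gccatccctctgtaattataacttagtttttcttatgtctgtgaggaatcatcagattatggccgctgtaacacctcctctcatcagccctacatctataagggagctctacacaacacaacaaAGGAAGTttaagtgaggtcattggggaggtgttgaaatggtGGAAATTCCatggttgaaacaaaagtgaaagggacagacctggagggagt
Ass1, plus strand of chr2:31470020-31470206: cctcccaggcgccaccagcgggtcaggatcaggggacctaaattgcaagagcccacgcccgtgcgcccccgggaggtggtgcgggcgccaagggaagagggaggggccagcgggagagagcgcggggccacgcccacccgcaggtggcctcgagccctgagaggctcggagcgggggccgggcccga
The Acod1 window of 215 bases has 43.3% G or C and 1 CpG, whereas the Ass1 window of 187 bases has 75.4% G or C and 18 CpG. In the Acod1 window the PU.1 match begins 91 bases and the NF-kappaB match 50 bases before the end, both on the plus strand, and the 2 do not overlap. On either strand, AGGAAGT stands in 6.33% and GGAAATTCC in 0.253% of 32851 promoter windows cut to the same length. The Acod1 window holds no match to TATAAA (9.75% of windows), GAAANNGAA (6.17%), TTCNNNGAA (6.14%) or TGANTCA (5.97%). Only these exact letters were searched, with GAAANNGAA for the core of an interferon response element. Looser forms of that element were not looked for, so their absence is not shown. The Ass1 window holds no match to any of the 6 motifs. A match of letters is a description and not a bound site.

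Total counts per library ran from 11845470 to 17284863. Levels are given as CPM, in which counts are scaled to the library total and adjusted by the trimmed mean of M-values (TMM). On that scale 1 count is worth 0.0582 to 0.0849 CPM and the floor of 3 counts 0.175 to 0.255 CPM. Intervals of single libraries and of pooled counts are exact 95% Poisson or binomial intervals, and they reflect counting error alone, as the read pairs carry no molecular identifiers and need not be independent molecules. Trex1 itself had 0 counts in all 8 libraries, WT included. All 1147 exonic bases of Trex1 lie within exons of Atrip, so the deletion could not be checked on Trex1. Atrip was at 14.1 and 17.4 CPM in WT and from 54.3 to 70.4 CPM in the 6 Trex1-/- libraries, with no overlap.

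Acod1 was the member with the widest range. It had 185 and 25 counts in WT (13.6 and 1.69 CPM), 583 and 588 in Trex1-KO (44.0 and 38.8 CPM), 71 and 77 with H151 (5.78 and 5.17 CPM), and 49 and 33 with SN-011 (2.85 and 2.80 CPM). Both Trex1-KO libraries stood above all others, and the H151 and SN-011 groups overlapped neither each other nor Trex1-KO. The WT group spanned both antagonist groups, with WT 1 above all 4 antagonist libraries and WT 2 below all 4.

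**Figure D1:**
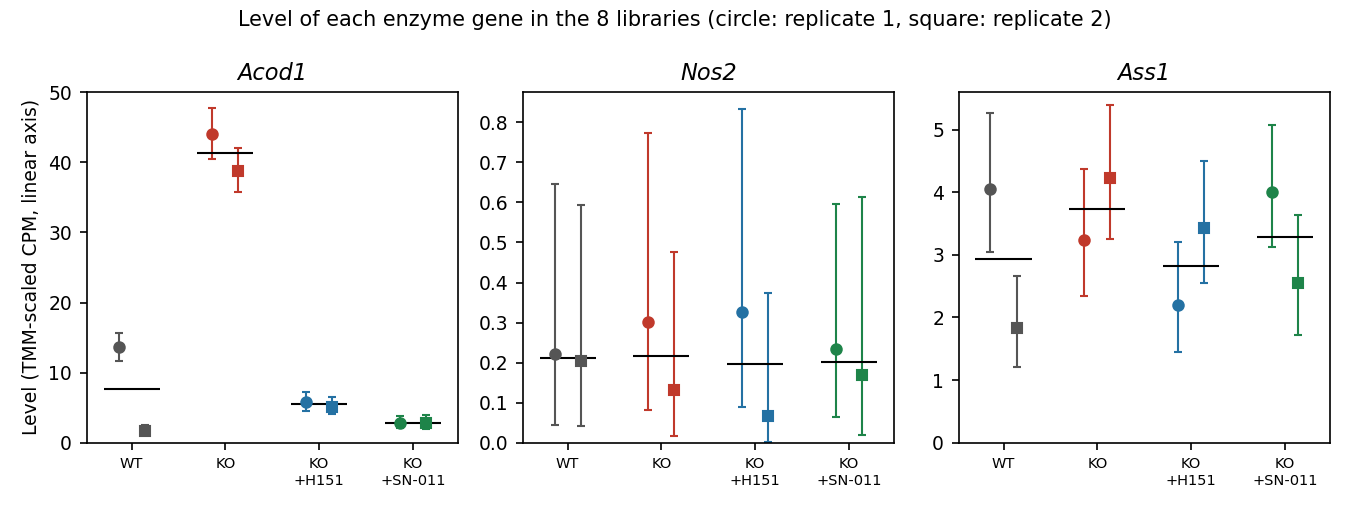
Level of each enzyme gene in each library, in TMM-scaled CPM on linear axes that differ between panels; circles are replicate 1, squares replicate 2, bars the 95% counting interval and black lines the group mean. Acod1 sits at 44.0 and 38.8 CPM in Trex1-KO and between 2.80 and 5.78 CPM with either antagonist, while Nos2 stays at or under 0.326 CPM throughout.

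The mean level of Acod1 was 41.4 ± 3.7 CPM (SD, n = 2) in Trex1-KO, 5.48 ± 0.43 with H151 and 2.83 ± 0.034 with SN-011. The fitted log2 difference from Trex1-KO was -2.92 ± 0.47 (SE) with H151 and -3.86 ± 0.51 with SN-011. In pooled counts Trex1-KO was 7.56 times the H151 group (6.37 to 9.03) and 14.6 times the SN-011 group (11.6 to 18.4). Ranked by fitted log2 difference over 14591 tested genes, Acod1 was number 3 among the falls with H151 and number 1 with SN-011, which is what it was chosen on.

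Between the compounds, Acod1 was lower with SN-011 in both libraries, at a fitted log2 difference from H151 of -0.95 ± 0.64 (SE). H151 over SN-011 gave a ratio of 1.92 in pooled counts (1.46 to 2.55). The 1 set of Trex1-KO libraries serves as the control of both compounds. By their sample numbers, the SN-011 libraries were registered apart from those of the other groups, which run in sequence. Whether all were prepared together is not stated in the sources used here. A batch, if there was one, and SN-011 cannot be told apart in any comparison with SN-011.

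WT gave no single reference level for Acod1. The 2 WT libraries averaged 7.66 ± 8.4 CPM, and WT 1 was 8.04 times WT 2 (5.28 to 12.7). Only 4 of the 14591 tested genes (0.0274%) differed more between the WT libraries. Trex1-KO was 3.03 times WT 1 (2.59 to 3.55) and 24.3 times WT 2 (16.4 to 37.7) in pooled counts. The fitted log2 difference of Trex1-KO from WT was 2.46 ± 0.45 (SE), 1.59 without WT 2 and 4.59 without WT 1. Trex1-KO stood above both WT libraries either way.

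Whether the antagonists brought Acod1 back to its WT level cannot be read from 2 WT libraries this far apart. The H151 group was 0.40 times WT 1 (0.32 to 0.499) and 3.22 times WT 2 (2.10 to 5.13). The SN-011 group was 0.208 times WT 1 (0.158 to 0.271) and 1.67 times WT 2 (1.06 to 2.73). The fitted log2 differences from WT were -0.46 ± 0.54 with H151 and -1.41 ± 0.60 with SN-011, and both turned positive, at 1.67 and 0.73, without WT 1.

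WT 1 also stood above WT 2 in most of the listed markers of classical activation. Of 11 tested markers 10 were higher in WT 1, with a median log2 difference of 0.58 against 0.01 over all tested genes. Of the cell type markers, 3 of 3 dendritic cell markers (median 0.79) and 2 of 2 monocyte markers (median 0.51) were also higher in WT 1, as were 4 of 5 stromal markers (median 0.14) and 1 of 2 megakaryocyte markers (median 0.09). The counts were 2 of 6 for macrophage (median -0.02) and 2 of 6 for neutrophil markers (median -0.23), and the single tested mast cell and basophil marker was lower in WT 1 (-2.59). The part of this spread in the Acod1 values was not tested.

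Nos2, the inducible nitric oxide synthase, was near the floor in every library. Its counts were 3 and 3 in WT, 4 and 2 in Trex1-KO, 4 and 1 with H151, and 4 and 2 with SN-011, which is 23 counts in all and a pooled level of 0.204 CPM (0.129 to 0.306). No library had more than 0.326 CPM, and the groups overlapped fully. Nos2 failed the filter. With every gene of at least 1 count kept, its fitted log2 differences ran from -0.18 to 0.12 over the 6 comparisons (adjusted p = 1 in each, edgeR), and a difference between groups was not detectable at this depth.

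Ass1, argininosuccinate synthase, varied as much within groups as between them. It had 55 and 27 counts in WT (4.05 and 1.83 CPM), 43 and 64 in Trex1-KO (3.24 and 4.22 CPM), 27 and 51 with H151 (2.20 and 3.43 CPM), and 69 and 30 with SN-011 (4.01 and 2.55 CPM). The ranges of all 4 groups overlapped.

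No difference of Ass1 passed the edgeR quasi-likelihood test. Trex1-KO differed from WT by 0.36 ± 0.36 on the log2 scale (SE, 95% interval -0.42 to 1.15, adjusted p = 0.581). H151 differed from Trex1-KO by -0.40 ± 0.37 (-1.19 to 0.40, adjusted p = 0.887) and SN-011 by -0.16 ± 0.36 (-0.93 to 0.61, adjusted p = 0.904). SN-011 differed from H151 by 0.24 ± 0.37 (-0.56 to 1.04, adjusted p = 0.884). The values of Ass1 are uncertain, because the processed pseudogene Gm5424 on chr10:62071123-62072362 matches its transcript at 99.5% identity over 1240 bases. Uniquely mapped pairs leave such stretches out or divide them. Gm5424 had 7 to 13 counts per library, and the sum of both genes ranged from 2.51 to 5.08 CPM.

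Ass1 was called in 0 of the 6 comparisons at a false discovery rate (FDR) of 0.05, and in 0 of them had an unadjusted p under 0.05. DESeq2 and the exact negative binomial test of edgeR called 0 as well. Over all 14591 tested genes, 16.4% were called between Trex1-KO and WT, 2.23% between H151 and Trex1-KO, 2.33% between SN-011 and Trex1-KO and 0.158% between SN-011 and H151. A further 11.8% were called between the H151 group and WT and 11.7% between the SN-011 group and WT. Against WT, Ass1 differed by -0.03 (adjusted p = 0.975) with H151 and by 0.20 (adjusted p = 0.817) with SN-011 on the log2 scale.

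**Figure D2:**
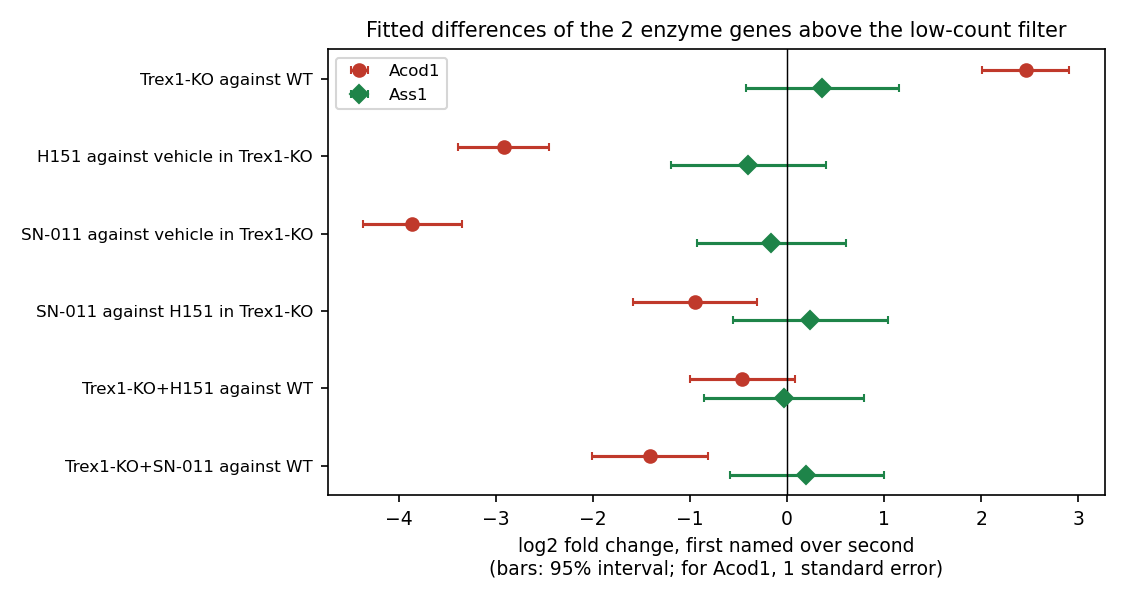
Fitted log2 fold changes of Acod1 and Ass1, the 2 enzyme genes above the low-count filter, in the 6 comparisons; bars are 95% intervals for Ass1 and 1 standard error for Acod1, which was chosen on these values and not tested. All 6 intervals of Ass1 include 0, and Acod1 lies at 2.46 for Trex1-KO against WT and at -2.92 and -3.86 with the antagonists.

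Levels of different genes were compared per kb of exon. In Trex1-KO the order was Acod1 (15.8 ± 1.4 CPM per kb, SD, n = 2), Ass1 (1.55 ± 0.29) and Nos2 (0.0492 ± 0.027), and no 2 of these genes overlapped. With H151 the order was Acod1 (2.09), Ass1 (1.17) and Nos2 (0.0445), again without overlap.

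With SN-011, Ass1 (1.36 CPM per kb) and Acod1 (1.08) did not separate, with 1.66 and 1.06 for Ass1 and 1.09 and 1.07 for Acod1, and Nos2 (0.0456) was lowest. In WT, Acod1 (2.92 ± 3.2) and Ass1 (1.22) could not be ordered beyond their spread, and Nos2 (0.0481) was again lowest.

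Ratios within each library were taken in counts per kb. Acod1 over Nos2 was 104 and 14 in WT, 245 and 495 in Trex1-KO, 29.9 and 130 with H151, and 20.6 and 27.8 with SN-011. These ratios rest on 1 to 4 Nos2 counts per library. Acod1 over Ass1 was 3.10 and 0.852 in WT, 12.5 and 8.46 in Trex1-KO, 2.42 and 1.39 with H151, and 0.654 and 1.01 with SN-011, where the Ass1 counts carry the uncertainty from Gm5424. Both ratios were highest in the 2 Trex1-KO libraries.

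**Figure D3:**
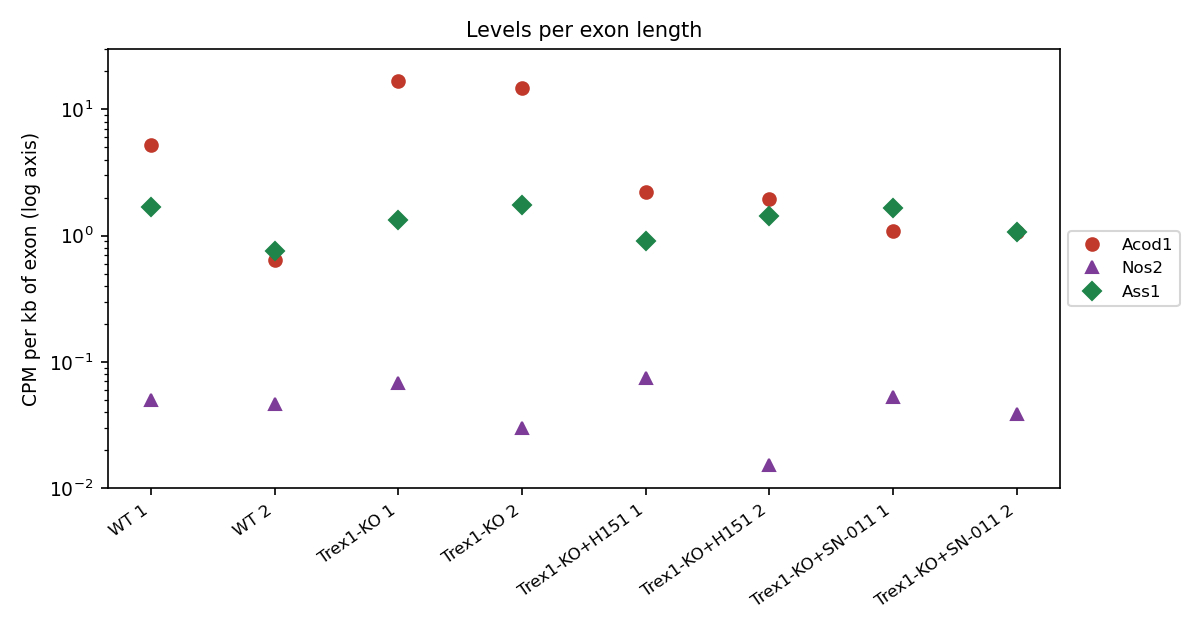
Levels of the 3 enzyme genes per kb of exon in each library on a log axis; points are libraries. Acod1 is the highest of the 3 in WT 1, both Trex1-KO and both H151 libraries and lies close to or below Ass1 elsewhere, while Nos2 is lowest in all 8.

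The surrounding pathways were taken from 7 lists of 105 genes without the members, of which 87 were tested. Between Trex1-KO and WT, 13 of the 87 were called higher and 14 lower, against 9.27% and 7.11% of all tested genes. With H151, 1 was called higher and 4 lower (0.384% and 1.84% of all genes), and with SN-011, 0 higher and 4 lower (0.11% and 2.22%). Over all genes, Trex1-KO against WT gave 1352 higher and 1038 lower calls, a split that became 946 and 1598 when libraries were scaled by their totals alone. Between SN-011 and H151, 0 of 87 listed genes were called by edgeR, 9 had an unadjusted p under 0.05, and both DESeq2 and the exact test called 0.

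Among transporters and enzymes around arginine, 2 of 8 tested genes were called in Trex1-KO. Slc7a2, a cationic amino acid transporter that imports arginine, fell from 12.2 ± 1.6 to 8.37 ± 1.4 CPM (log2 -0.54 ± 0.17 SE, adjusted p = 0.043), a call that was lost with DESeq2 (adjusted p = 0.132). Gatm, which moves the guanidino group of arginine to glycine in creatine synthesis, rose from 107 ± 1.6 to 128 ± 10 CPM (0.27 ± 0.07, adjusted p = 0.0162) and was lower with H151 at 101 ± 3.3 CPM (-0.34 ± 0.07, adjusted p = 0.0178). The Gatm call against WT was lost when scaled by library totals alone, and that of H151 when only these 2 groups were fitted. Leaving out a library ended the Slc7a2 call without WT 1, Trex1-KO 2 or either SN-011 library (adjusted p up to 0.268), the Gatm call against WT without WT 1, WT 2 or Trex1-KO 2 (up to 0.168) and that of H151 without Trex1-KO 2 or H151 1 (up to 0.245). Asl, which completes the rebuilding of arginine after Ass1, was at 47.8 CPM in Trex1-KO and 45.3 in WT (adjusted p = 0.576). The liver urea cycle genes Cps1 and Otc had 0 counts in all libraries.

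Of 10 tested genes of nitric oxide synthesis and sensing, 2 rose and 3 fell in Trex1-KO. Gch1, the first and rate-limiting enzyme of the tetrahydrobiopterin cofactor that nitric oxide synthases need, rose from 12.5 ± 1.2 to 22.5 ± 1.2 CPM (0.86 ± 0.12, adjusted p = 0.000183). It was lower with SN-011 at 15.4 ± 0.18 CPM (-0.55 ± 0.12, adjusted p = 0.0241). With H151 it stood at 16.2 ± 0.065 CPM (-0.48 ± 0.12, adjusted p = 0.0526), close to the threshold but not called. Gch1 with SN-011 differed from H151 by -0.07 ± 0.12 (adjusted p = 0.901). Pts, the next enzyme of that route, fell (62.4 ± 1.0 to 48.5 ± 3.3 CPM, -0.36 ± 0.08, adjusted p = 0.00458). The SN-011 call of Gch1 was lost when any 1 of the 4 Trex1-KO or SN-011 libraries was left out (adjusted p up to 0.214).

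Ddah1 and Ddah2, which break down methylarginines that inhibit nitric oxide synthases, both fell in Trex1-KO, from 16.8 ± 4.1 to 7.38 ± 1.2 CPM (-1.19 ± 0.19, adjusted p = 0.000605) and from 10.4 ± 0.14 to 6.09 ± 0.61 CPM (-0.77 ± 0.19, adjusted p = 0.0128). Nosip, which binds endothelial nitric oxide synthase, rose from 53.1 ± 1.7 to 70.7 ± 0.84 CPM (0.41 ± 0.08, adjusted p = 0.00272). None of these 3 was called with an antagonist. The Ddah2 call was lost without WT 1, WT 2 or Trex1-KO 1 (adjusted p up to 0.0812).

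Ornithine, which forms from arginine, feeds polyamines and proline, and 1 of 16 tested genes of these routes rose and 3 fell in Trex1-KO. Srm, spermidine synthase, fell from 19.1 ± 0.43 to 10.6 ± 0.22 CPM (-0.85 ± 0.13, adjusted p = 0.000309). Aldh18a1 and Pycr1, enzymes of proline synthesis, fell by 0.58 ± 0.18 and 1.12 ± 0.31 on the log2 scale (adjusted p = 0.0428 and 0.0219). Prodh, which breaks proline down, rose by 0.61 ± 0.17 (adjusted p = 0.0226). The calls of Aldh18a1, Pycr1 and Prodh were lost with DESeq2, at adjusted p of 0.0693, 0.0581 and 0.104. They were also lost without either WT library or Trex1-KO 2, and for Pycr1 and Prodh without Trex1-KO 1 (adjusted p up to 0.243 for Aldh18a1, 0.094 for Pycr1 and 0.12 for Prodh). With either antagonist 0 of the 16 were called.

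Of the 22 tested genes of the TCA cycle and citrate handling, the source of the substrate of Acod1, 1 rose and 3 fell in Trex1-KO, all by less than a log2 of 0.5. Idh2, mitochondrial isocitrate dehydrogenase, fell from 58.2 ± 0.10 to 46.5 ± 0.008 CPM (-0.32 ± 0.08, adjusted p = 0.00855). Fh1, fumarate hydratase, fell from 67.7 ± 0.41 to 54.3 ± 1.1 CPM (-0.32 ± 0.07, adjusted p = 0.00552). Idh3g, a subunit of the NAD-dependent isocitrate dehydrogenase, fell by 0.21 ± 0.06 (adjusted p = 0.024, lost with DESeq2 at 0.0921), and Mdh1, cytosolic malate dehydrogenase, rose by 0.25 ± 0.06 (adjusted p = 0.00898, lost with library totals alone). Leaving out any 1 WT or Trex1-KO library also ended these last 2 calls (adjusted p up to 0.0976 and 0.0903). With either antagonist 0 of the 22 were called.

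Of 7 tested genes of itaconate transport, breakdown and sensing, 3 rose in Trex1-KO. Slc13a3, a dicarboxylate carrier that can take up itaconate, was at 4.24 ± 0.15 CPM in WT, 7.78 ± 3.0 in Trex1-KO, 2.81 ± 0.40 with H151 and 3.97 ± 0.51 with SN-011. Its rise in Trex1-KO (0.89 ± 0.26, adjusted p = 0.0308) was lost with DESeq2 (adjusted p = 0.068), and its fall with H151 (-1.47 ± 0.27, adjusted p = 0.00935) was lost when only these 2 groups were fitted. The rise was also lost without WT 1, WT 2 or Trex1-KO 2 (adjusted p up to 0.38) and the fall without Trex1-KO 2 or H151 1 (up to 0.148). The Trex1-KO libraries were at 5.66 and 9.89 CPM, and SN-011 differed from H151 by 0.48 ± 0.30 (adjusted p = 0.67).

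Nfe2l2, which encodes the oxidative stress factor NRF2 that itaconate derivatives are known to activate, rose by 0.27 ± 0.07 in Trex1-KO (adjusted p = 0.0132, lost with library totals alone and without WT 1, WT 2 or Trex1-KO 1, at up to 0.213). Its level was 333 CPM in WT, 401 in Trex1-KO, 358 with H151 (-0.16 ± 0.07, adjusted p = 0.42) and 347 with SN-011 (-0.21 ± 0.07, adjusted p = 0.168), neither called. Atf3, a stress factor that electrophilic itaconate derivatives are known to induce, rose from 198 ± 1.3 to 264 ± 10 CPM (0.42 ± 0.06, adjusted p = 0.00013). Atf3 stood at 304 ± 6.4 CPM with H151 and 277 ± 2.0 with SN-011, neither called against Trex1-KO.

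Markers of classical, inflammatory activation other than Nos2 had the widest median difference of the 7 lists, and Il6, Il12b, Il12a and Ccr7 were too low to test. Of 11 tested markers 4 were called higher in Trex1-KO and 0 lower, with a median log2 difference of 0.64 against 0 over all genes. Ptgs2 (-0.41), Cd86 (-0.16), Socs3 (-0.16) and Cd80 (-0.13) lay lower in Trex1-KO without a call. Cxcl9 (1.48), Gpr18 (1.11) and Il1b (0.41) lay higher, also without a call. The same 11 markers differed by a median of 0.58 between WT 1 and WT 2, with 10 higher in WT 1. With H151, 1 was called lower (median -0.57) and with SN-011, 3 were called lower (median -0.82). These medians include markers that were not called.

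Irf1, an interferon-induced transcription factor, rose from 83.7 ± 10 to 131 ± 10 CPM in Trex1-KO (0.64 ± 0.09, adjusted p = 0.000122) and fell to 87.9 ± 4.6 with H151 (-0.57 ± 0.09, adjusted p = 0.00167) and 85.0 ± 3.5 with SN-011 (-0.62 ± 0.09, adjusted p = 0.000902). Among the 7 pathway lists it alone was called in all 3 comparisons, and it kept these calls under all 16 alternatives, each left-out library included. Tnf, the inflammatory cytokine, rose from 4.79 ± 3.3 to 17.3 ± 1.6 CPM (1.87 ± 0.30, adjusted p = 0.000575) and fell to 5.86 ± 0.84 with SN-011 (-1.54 ± 0.29, adjusted p = 0.00943, lost with DESeq2 at 0.0781). That fall was also lost without either SN-011 library (adjusted p up to 0.144). With H151 Tnf was at 8.00 ± 0.37 CPM (-1.11 ± 0.28, adjusted p = 0.0659) and not called.

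Fpr2, a formyl peptide receptor, rose from 4.57 ± 4.4 to 11.7 ± 0.28 CPM (1.37 ± 0.42, adjusted p = 0.0385, lost with DESeq2 at 0.334) and fell to 2.04 ± 0.49 with SN-011 (-2.48 ± 0.47, adjusted p = 0.00983). It was at 3.39 ± 0.045 CPM with H151 (-1.78 ± 0.44, adjusted p = 0.0549), which was not called. Cd38, an NAD-consuming surface enzyme, rose by 0.98 ± 0.23 (adjusted p = 0.00875), a call lost without WT 2 or Trex1-KO 2 (up to 0.127). The rise of Fpr2 was lost without WT 2, either Trex1-KO or either SN-011 library (up to 0.122), and its fall without either SN-011 library (up to 0.139). SN-011 did not differ from H151 by the test for Tnf (-0.44 ± 0.31, adjusted p = 0.715) or Fpr2 (-0.70 ± 0.54, adjusted p = 0.74).

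Markers of alternative, IL-4 type activation were mixed, with 1 of 13 tested higher and 4 lower in Trex1-KO. Chil3, a secreted chitinase-like protein with a close paralog in Chil4, rose from 0 and 0.949 CPM in the WT libraries to 6.41 and 6.92 (3.74 ± 0.52, adjusted p = 0.000168) and was at 7.27 CPM or more with an antagonist. Clec10a, a lectin, fell from 63.5 ± 3.7 to 44.1 ± 2.6 CPM (-0.53 ± 0.09, adjusted p = 0.000877). Stab1, a scavenger receptor, fell from 3970 ± 150 to 3040 ± 62 CPM (-0.38 ± 0.05, adjusted p = 0.000145). Socs2 and Il4ra, the receptor chain for IL-4, fell by 1.06 ± 0.23 and 0.22 ± 0.06 on the log2 scale (adjusted p = 0.00588 and 0.0326). The Socs2 call was lost without WT 1 or Trex1-KO 2 (up to 0.0748), and the Il4ra call without either WT library or Trex1-KO 2 (up to 0.19) and with DESeq2 (0.0517).

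With H151, Clec10a was lower still (-0.39 ± 0.09, adjusted p = 0.0471) and Stab1 higher (0.23 ± 0.05, adjusted p = 0.0381) than in Trex1-KO, both close to the threshold. The Clec10a call was lost with DESeq2 (adjusted p = 0.0572), with library totals alone and when only these 2 groups were fitted, and the Stab1 call was lost with the exact test and when only these 2 groups were fitted. The Clec10a call was also lost when any 1 of the 8 libraries was left out (adjusted p up to 0.356), and that of Stab1 without either Trex1-KO or SN-011 library or H151 1 (up to 0.197). With SN-011 0 of the 13 were called. Mrc1, the mannose receptor, was at 1000 CPM in Trex1-KO and 978 in WT (adjusted p = 0.752).

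The tested genes whose log2 CPM followed that of Acod1 most closely over the 8 libraries were C3, the central complement component (Pearson r = 0.988), D5Ertd579e (0.986), Fpr2 (0.986), Nadk, an NAD kinase (0.981), and Igsf6 (0.979). These are descriptions over 8 libraries that share their groups and, in part, the WT spread. C3 was at 160 and 92.5 CPM in WT, 269 and 270 in Trex1-KO, 125 and 139 with H151, and 111 and 109 with SN-011. Nadk stood at 275 and 224, 327 and 312, 245 and 234, and 236 and 226 CPM in the same order. D5Ertd579e ranged only from 56.2 to 69.5 CPM and Igsf6 from 253 to 316 CPM, while Acod1 ranged from 1.69 to 44.0 CPM. All 5 were chosen for following Acod1, so their shared pattern is no separate observation.

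**Figure D4:**
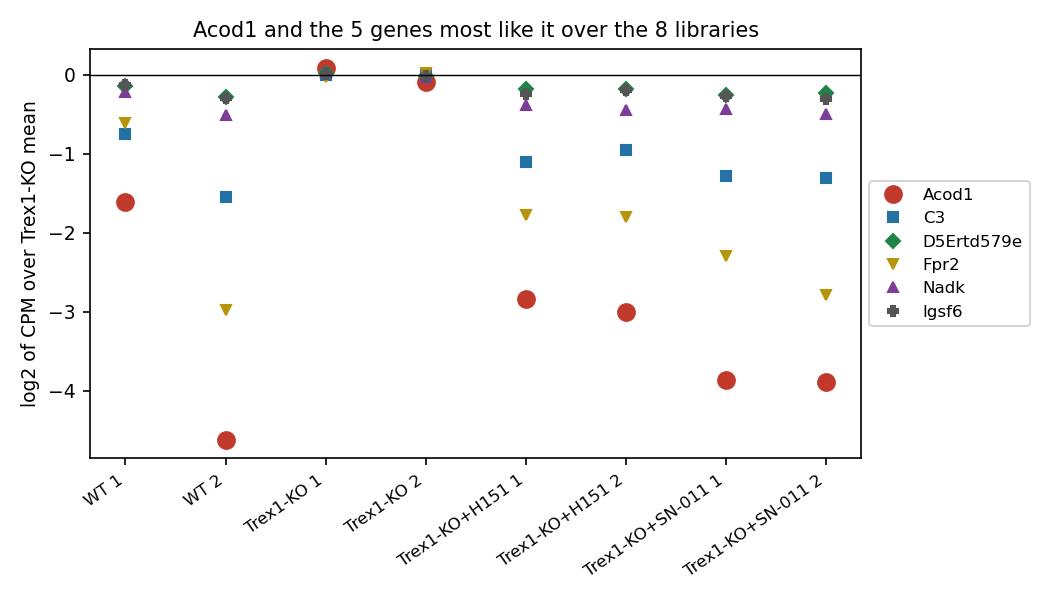
Log2 of the level over the Trex1-KO mean in each library for Acod1 and the 5 genes with the highest correlation to it, in TMM-scaled CPM. The 6 genes are highest in the 2 Trex1-KO libraries, a pattern they were ranked on. In each of the 6, WT 1 lies above both H151 libraries and WT 2 below both. Acod1 spans the widest range of the 6.

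For Ass1 the most alike genes were Zbtb8os (r = 0.952), Gm15519 (0.948) and Fam76b (0.935), of which Fam76b ranged only from 84.3 to 95.4 CPM. Ranking by Spearman's rho instead kept 0 of the 5 genes of Acod1 and 0 of the 3 of Ass1.

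Defining macrophage markers (Adgre1, Csf1r, Cd68, Itgam, Mertk and Fcgr1) summed to between 8770 and 9740 CPM in every library. Of the 6, 3 were called higher in Trex1-KO than WT, against 9.27% of all tested genes. Fcgr1, the high-affinity IgG receptor, rose from 233 to 513 CPM in Trex1-KO (1.14 ± 0.08, adjusted p = 2.66e-07) and fell to 363 with H151 (-0.50 ± 0.08, adjusted p = 0.00256) and 366 with SN-011 (-0.49 ± 0.08, adjusted p = 0.00289). It was the 1 macrophage marker called with either antagonist. In these bulk samples fewer cells of a type and less RNA per cell cannot be told apart. Summed neutrophil markers were at 9.49 to 9.86 CPM in WT, 66.4 to 87.7 in Trex1-KO, 78.9 to 83.6 with H151 and 79.2 to 101 with SN-011. Trex1-KO against WT called 6 of 6 tested as higher, against 9.27% of all tested genes. The defining neutrophil gene Ly6g had at most 3 counts in any library.

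The 2 monocyte markers summed to 17.4 to 20.5 CPM in WT, 78.2 to 79.4 in Trex1-KO, 66.1 to 69.0 with H151 and 68.8 to 79.8 with SN-011. Of 5 tested stromal markers 4 were called lower in Trex1-KO than WT, against 7.11% of all tested genes. The stromal sums were 2090 to 2290 CPM in WT, 858 to 1060 in Trex1-KO, 1100 to 1220 with H151 and 929 to 1120 with SN-011. With either antagonist 0 of the 6 tested neutrophil, 0 of the 2 monocyte and 0 of the 5 stromal markers were called against Trex1-KO. Over all tested genes 2.23% were called with H151 and 2.33% with SN-011, so 0 calls among so few markers lies near those rates. The share of counts on mitochondrially encoded genes was 1.69% and 1.66% in WT, 1.30% and 1.27% in Trex1-KO, 1.45% and 1.28% with H151, and 1.26% in both SN-011 libraries. These markers and this share moved together with Acod1, Gch1 and the other calls between Trex1-KO and WT, and their part in those differences was not tested. The macrophage sums were lower with either antagonist without overlap, at 9630 to 9740 CPM in Trex1-KO, 9170 to 9340 with H151 and 8960 to 8980 with SN-011. The monocyte sums were also lower with H151 without overlap, whereas the neutrophil sums with H151 and with SN-011 and the monocyte sums with SN-011 overlapped those of Trex1-KO. The stromal sums were higher without overlap with H151 and overlapped with SN-011. The part of these sums in the lower Acod1 values was not tested. Summed markers of T and NK cells stayed at or under 0.57 CPM, those of B cells at or under 0.791, and those of mast cells and basophils at or under 1.81.

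Dendritic cell markers summed to 1.76 to 2.94 CPM in WT, 3.56 to 4.30 in Trex1-KO, 3.01 to 4.03 with H151 and 3.20 to 3.57 with SN-011. Of 3 tested, Xcr1 (2.88 ± 0.68, adjusted p = 0.00965) and Clec9a (2.60 ± 0.50, adjusted p = 0.00237) were called higher in Trex1-KO. Clec9a was at 0.286 CPM in WT, 1.76 in Trex1-KO, 0.865 with H151 (adjusted p = 0.396) and 0.559 with SN-011 (adjusted p = 0.0817). The third tested marker, Zbtb46, a transcription factor of conventional dendritic cells, lay the other way at 1.43 CPM in WT, 0.566 in Trex1-KO (-1.32 ± 0.50, adjusted p = 0.0951), 0.844 with H151 (adjusted p = 0.888) and 1.66 with SN-011 (adjusted p = 0.178), and was not called. Megakaryocyte markers, nearly all of them Pf4 counts, summed to 137 to 161 CPM in WT, 174 to 194 in Trex1-KO, 267 to 284 with H151 and 168 to 185 with SN-011. Pf4 was called higher in Trex1-KO against WT (0.31 ± 0.09, adjusted p = 0.0227) and with H151 (0.58 ± 0.08, adjusted p = 0.00126) and lower with SN-011 than with H151 (-0.65 ± 0.08, adjusted p = 0.0117). The part of Fcgr1, dendritic cell and megakaryocyte markers in the Acod1 values was not tested.

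**Figure D5:**
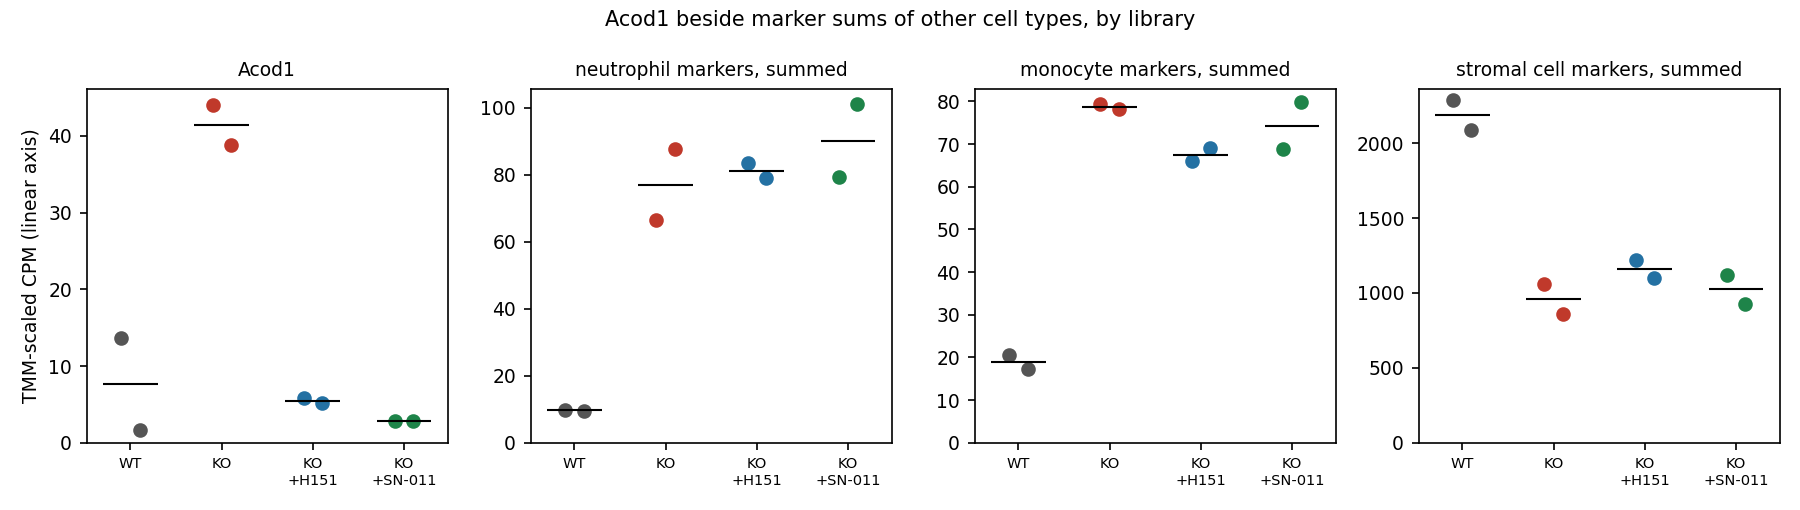
Level of Acod1 and summed levels of neutrophil, monocyte and stromal markers in each library, in TMM-scaled CPM on linear axes from 0; points are libraries and lines group means. The marker sums separate WT from the 6 Trex1-/- libraries, and the monocyte and stromal sums also separate Trex1-KO from H151. Acod1 separates Trex1-KO from WT and from both antagonist groups, the latter being what it was picked on.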

How the data were processed

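BMDM RNA was measured in 8 libraries. According to the study's methods, the authors trimmed read pairs, aligned them with hisat2, and counted uniquely mapped pairs per gene with featureCounts, while the submitters' processing notes name HISAT2, HTSeq and build mm10. The labels and methods name different instruments, and tool versions and the strand setting of the counting are not given in the sources used here. The deposited values are raw counts without normalization. GENCODE release M21 held 54495 of 54532 identifiers and lacked 37. Replicates differed beyond sampling noise (chi-square over degrees of freedom 3.16 to 6.33).

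Groups and replicate numbers came from the sample titles. Counts were tested in R 4.3.3 with edgeR 4.0.16 (TMM factors 0.973 to 1.04, filterByExpr at count 10 and total 15, all 8 libraries in 1 two-sided quasi-likelihood fit with 1 mean per group). P-values were adjusted by Benjamini-Hochberg over 14591 genes and called at an FDR of 0.05, and the script was tested on simulated data. Standard errors are the log2 fold change over the root of F and are approximate. Near-identical copies were sought with blastn 2.17.0.

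The members and lists were chosen with earlier results of these data known. Some members and listed genes are not reported here. Named were the 3 members, every listed gene called in 1 of the first 4 comparisons (at most 12 per list), and the most correlated genes, 5 for Acod1 and 3 for Ass1, on log2 CPM with a prior count of 2. Asl, Cps1, Otc and Mrc1, other uncalled genes and the marker genes were added for context after their values were seen. Alternatives were DESeq2 1.42.0 and its size factors, library totals, other filters, the exact test, 2-group fits, a replicate block and each library left out.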

Additional observations from a re-analysis of the deposited data

How the results depend on the processing

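Ass1 kept its direction and stayed short of the threshold in 48 of 48 values from alternatives other than leaving out a library (lowest adjusted p 0.536), and the fitted log2 differences of Acod1 ranged from 2.37 to 2.58 for Trex1-KO against WT, -2.93 to -2.89 with H151 and -3.95 to -3.84 with SN-011. Leaving out 1 library at a time, Acod1 ranged from -1.33 to 1.67 for H151 against WT and from -2.27 to 0.73 for SN-011 against WT. Ass1 ranged from -0.12 to 1.02 for Trex1-KO against WT, -0.16 to 0.61 for SN-011 against H151, -0.56 to 0.10 for SN-011 against Trex1-KO, -0.52 to 0.62 for H151 against WT and -0.28 to 0.86 for SN-011 against WT. Ass1, the only member given a test, was not called in any comparison with 1 library left out.

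With every gene of at least 1 count kept, genes called rose from 325 to 525 for H151 against Trex1-KO, from 340 to 679 for SN-011 and from 23 to 266 between the compounds. Between the compounds DESeq2 called 38, the exact test 84 and the fit with a replicate block 44. Leaving out 1 library gave 231 to 357 genes for H151, 131 to 493 for SN-011 and 2 to 291 between the compounds. It gave 1556 to 2651 for Trex1-KO against WT, 971 to 1790 for the H151 group and 909 to 1933 for the SN-011 group against WT. The fewest came without Trex1-KO replicate 1 for H151, without SN-011 replicate 1 for SN-011 and between the compounds, without WT 1 for Trex1-KO and H151 against WT, and without SN-011 replicate 2 for SN-011 against WT. The most came without H151 replicate 2 in each comparison except H151 against WT, where they came without Trex1-KO replicate 2. Listed genes called moved from 5 to 9 (every gene), 3 (2 groups only) and 8 (replicate block) for H151, from 4 to 15 for SN-011 (every gene) and from 0 to 3 between the compounds (every gene). The cause was not tested. Of 36 calls of listed genes, 20 held in every setting other than leaving out a library and 15 in all of them, and 0 changed sign.

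The titles share replicate numbers without saying what they stand for. Deviations of same-numbered libraries correlated at 0.19 between Trex1-KO and H151, at -0.01 between Trex1-KO and SN-011 and at 0.06 between WT and Trex1-KO. The replicate block gave 412 genes for H151 and 436 for SN-011 against Trex1-KO and did not call Ass1. Nos2 is limited by depth, and WT by 2 libraries that differ.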
